A study of Eulimnogammarus verrucosus and Eulimnogammarus cyaneus and Gammarus lacustris with 24 samples.

Results

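The biotransformation enzymes of 3 amphipod crustaceans were compared between animals held at 1.5 °C and at 12 °C. They are the cytochromes P450 and their electron donors, other oxidases, epoxide hydrolases, carboxylesterases, carbonyl and retinol reductases, and the glutathione, sulfo and glucuronosyl transferases. Members were picked by symbol from the names listed in the authors' deposited tables, which gave 120 of 12688 entries. The choice of symbols was made with earlier results of these data known. Gammarus lacustris contributed 46 of its 5094 names, Eulimnogammarus verrucosus 42 of 3920 and Eulimnogammarus cyaneus 32 of 3674. These carry 72 distinct names, of which 18 stood in all 3 species, 12 in 2 species and 42 in 1 species.

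Each species had a group moved gradually to 1.5 °C and a group moved gradually to 12 °C, both after 14 days at 6 °C and both held at the final temperature for 1 month. E. verrucosus and E. cyaneus live only in Lake Baikal, and G. lacustris is widespread in northern fresh waters. All animals were wild adults from the rocky shore at Bolshie Koty, collected in the same month, and RNA came from whole bodies. Each group had 4 libraries. A library held pooled animals: 3 of the large E. verrucosus, about 11 of G. lacustris or about 13 of the small E. cyaneus, and p-values therefore reflect how pools varied. No label gives sex or moult stage. In whole bodies, fewer cells of a type and less RNA per cell cannot be told apart.

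Biotransformation runs in steps. P450s, heme enzymes of the endoplasmic reticulum and mitochondria, insert oxygen into lipophilic molecules with electrons passed on by a reductase or by cytochrome b5, and related enzymes oxidise, reduce or hydrolyse other groups. Transferases then couple glutathione, sulfate or a sugar to the product, which makes it easier to excrete. In arthropods some of the same families also make and break down the moulting hormone, an ecdysteroid, and the juvenile hormones.

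By class, the 120 entries were 37 P450s, 25 carbonyl and retinol reductases, 20 glutathione transferases, 11 electron donors, 8 other oxidases, 8 glucuronosyltransferases, 4 sulfotransferases, 4 carboxylesterases and 1 epoxide hydrolase. The other 2, CYB561D2 and GSTCD in G. lacustris, match the naming rule but are a cytochrome b561 family protein and a protein with a glutathione transferase domain, and they were counted apart. No flavin monooxygenase or arylamine acetyltransferase name was matched. Symbols were given by the authors from proteins of other animals, so a vertebrate symbol such as UGT1A1 says which protein the transcript resembled and not that the amphipod enzyme has the same substrate. Copies of these families can share reads, and values of close relatives such as CYP301A1 and CYP301B1 or the glutathione transferases are uncertain to that extent.

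Total estimated counts per library ran from 8501852 to 15417719. The count files name transcripts and not genes, and 101 of the 120 members could be tied to transcripts by an identical mean normalised count, 73 of them to a single transcript. The other 19 are given here only as the authors' deposited table has them. Counts were high enough to test 24 tied members of E. verrucosus, 14 of E. cyaneus and 24 of G. lacustris, while 15, 12 and 12 tied members were too low. Levels between libraries are in CPM, counts scaled to library size with TMM factors, levels between genes are in TPM, which is also per length, and every fold change is log2 of 1.5 °C over 12 °C with its standard error. A change was called where edgeR's quasi-likelihood test gave an adjusted p (Benjamini-Hochberg over all features of the species, that is, tied names plus single transcripts tied to no name) under 0.05.

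Several libraries stood apart. Replicate 1 at 12 °C had the lowest TMM factor of its species in all 3 species (0.823 in G. lacustris, 0.728 in E. verrucosus and 0.666 in E. cyaneus). Replicate 4 at 1.5 °C lay apart from the rest of E. verrucosus on a principal component. Muscle markers, present as in whole bodies, summed to 10176 to 36520 CPM in the cold and 17166 to 66063 CPM in the warm libraries of E. verrucosus (4 of 10 names measured). The sums were 6303 to 10165 and 11746 to 30778 CPM for E. cyaneus (5 of 9 names), and 4024 to 5719 and 5327 to 6429 CPM for G. lacustris (6 of 10 names). Ovary and yolk markers in E. cyaneus summed to 956 to 1799 CPM in the cold and 106 to 434 CPM in the warm libraries (3 of 4 names measured), and their part in the results below was not tested.

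By edgeR's test, calls among the members came from G. lacustris alone. There 8 of 24 tested members were lower at 1.5 °C and 0 were higher, while in E. verrucosus and E. cyaneus no member passed. The share of all features called stands beside these counts. In E. verrucosus it was 3.35% (1.33% higher, 2.02% lower), and among features with a gene name 0.719% were higher and 0.785% lower. In E. cyaneus it was 0.629% (0.312% higher, 0.317% lower), and among named features 0.217% were higher and 0.217% lower. In G. lacustris it was 40.1% (9.9% higher, 30.2% lower), and among named features 10.2% were higher and 48.5% lower, so the 33.3% of members called lower was near the share of all features and below that of named ones.

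At an unadjusted p under 0.05 edgeR's test gave 3 members in each Eulimnogammarus species and 11 in G. lacustris, against 11.6% of all features of E. verrucosus, 14.3% of E. cyaneus and 46.8% of G. lacustris. DESeq2 called 3 members of E. verrucosus (1 higher, 2 lower), 0 of E. cyaneus and 9 of G. lacustris (1 higher, 8 lower), against 5.75%, 4.21% and 43.8% of all features. The CPM of the groups did not overlap for 2, 1 and 9 tested members, against 9.2%, 10.2% and 44.2% of all features. The median fold change of tested members was -0.41 in G. lacustris, -0.22 in E. verrucosus, with 0.01 in E. cyaneus, beside 0.11, -0.03 and 0.01 for all tested features. Most of these features carry no gene name, and in G. lacustris named ones were called lower more often (48.5% against 30.2% of all). The 0.11 is therefore no median of named genes. For G. lacustris the authors' deposited table, which lists names only and has its own scaling, gives medians of 0.14 for members and -0.41 for all entries.

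**Figure D1:**
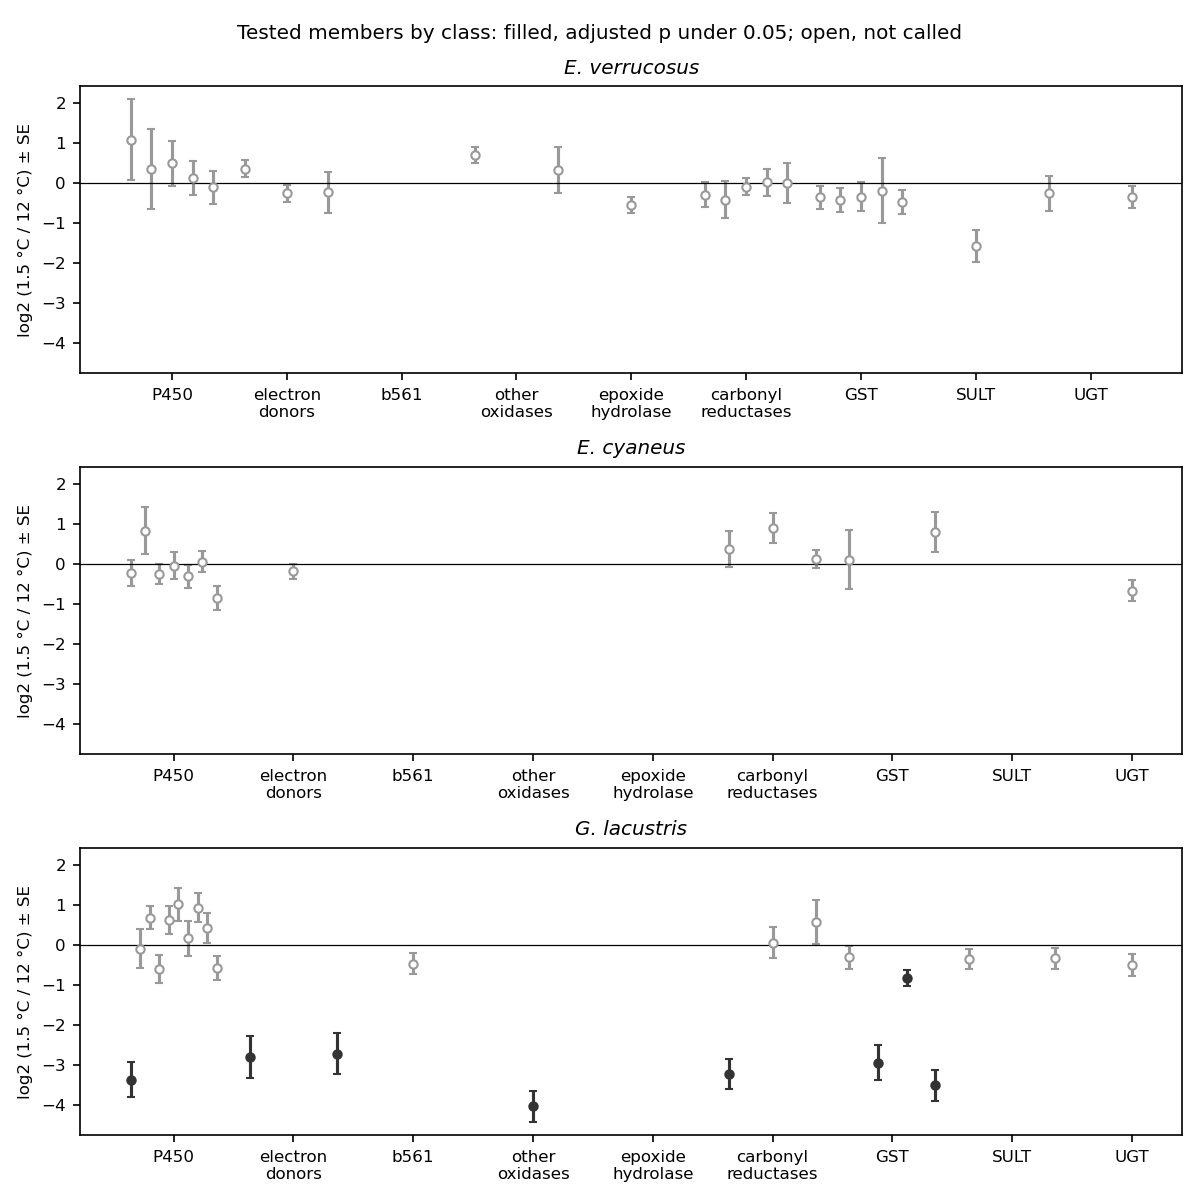
Log2 fold change (1.5 °C over 12 °C) with its standard error for every tested member, by enzyme class, in the 3 species; filled points passed edgeR's quasi-likelihood test at an adjusted p under 0.05. All 8 filled points belong to G. lacustris and lie below 0 with TMM scaling, and 7 of them lie below -2.

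In G. lacustris the result depended on the scaling. The size factors the authors used, solved from their table and the counts, ran from 0.753 to 0.906 at 1.5 °C and from 1.18 to 1.27 at 12 °C. Relative to the TMM-scaled library sizes of the same libraries, they were at 0.779 to 0.832 in the cold and 1.09 to 1.52 in the warm. With the authors' size factors in edgeR the median fold change of all features was 0.75 in place of 0.11 with TMM, and the members moved by 0.64 in the median, to a median of 0.24. Then 12 of 24 tested members passed, 5 higher and 7 lower, against 10318 features higher and 7694 lower in all, and the number of members with a positive fold change was 16 in place of 8. In the other 2 species the same change moved the median of all features to -0.06 and -0.10.

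Among single members, sulfotransferase SULT1C3 had the highest mean TPM of the measured members in both E. verrucosus and G. lacustris. Sulfotransferases move sulfate from an activated donor onto phenols, steroids and other alcohols. SULT1C3 of E. verrucosus stood at 88.9 ± 33.2 TPM in the cold and 235 ± 140 TPM in the warm libraries, and that of G. lacustris at 176 ± 30.0 TPM in the cold and 227 ± 75.6 TPM in the warm (mean ± SD, n = 4 each). Next in E. verrucosus were MGST1, a membrane-bound glutathione transferase, with a mean of 59.6 TPM over the 8 libraries, CYB5R3, the reductase of cytochrome b5, with 42.5 TPM, and the retinol dehydrogenase RDH12 with 33.1 TPM. In E. cyaneus the order began with CYB5R3 at 26.6 TPM, the P450 Cyp6a9 at 14.2 TPM and the carbonyl reductase CBR3 at 10.5 TPM. In G. lacustris SULT1C3 was followed by SULT1B1 at 70.4 TPM, by the P450 CYP2J2 and the delta-class glutathione transferase GSTD6 at 25.4 TPM each, and by GstT3 at 21.0 TPM. Some members missing here were high in counts: the authors' deposited table gives mean normalised counts of 2759 for SULT1C3 in E. cyaneus, 3215 for GstD1 in G. lacustris and 1915 for GSTM3 in E. verrucosus, which are not per length and cannot be ranked with the TPM values.

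**Figure D2:**
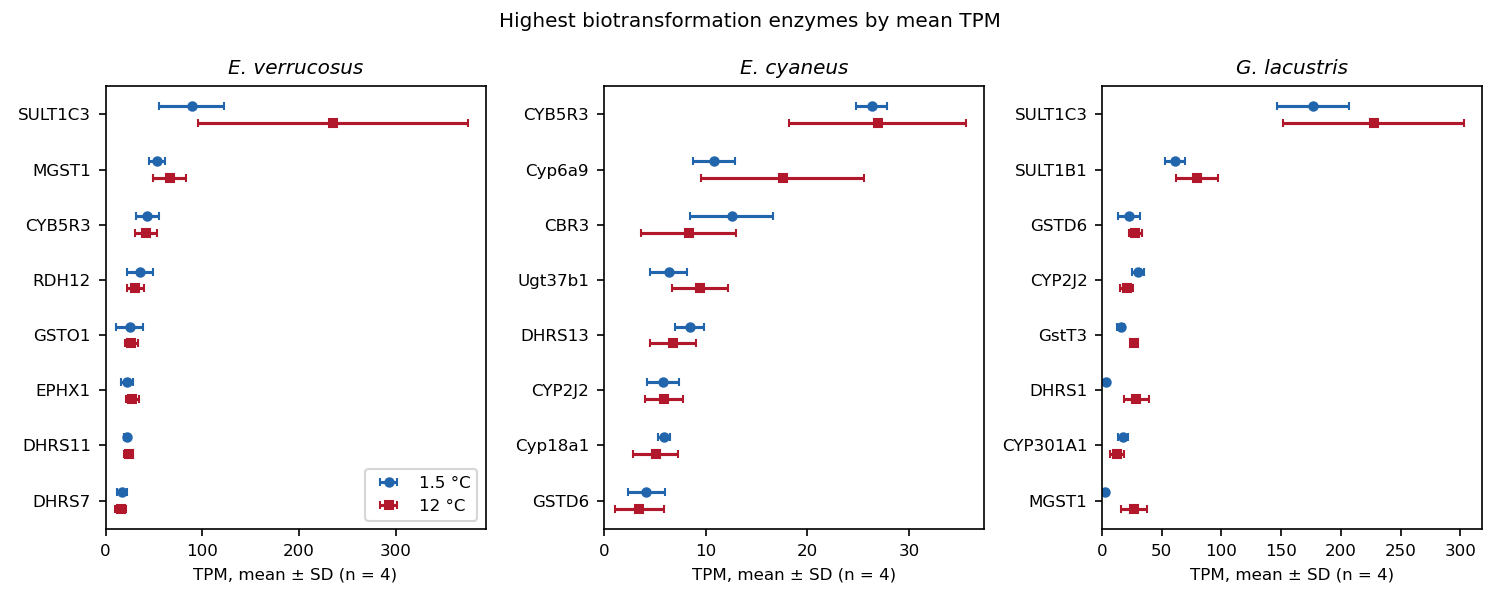
Mean TPM ± SD (n = 4 libraries) at 1.5 °C and 12 °C of the 8 members with the highest mean TPM in each species, the 1.5 °C value above the 12 °C value. SULT1C3 leads in E. verrucosus and G. lacustris, and DHRS1 and MGST1 of G. lacustris show the widest ratio between temperatures among those drawn.

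None of the P450s tested with edgeR passed in the Baikal species (5 in E. verrucosus, 7 in E. cyaneus). Cyp6a9, a member of the CYP6 family known in flies for insecticide metabolism, had the lowest fold change of the tested P450s of E. cyaneus. It stood at 28.1, 23.9, 27.3 and 35.6 CPM at 1.5 °C, against 24.6, 65.6, 59.3 and 58.6 CPM at 12 °C. Replicate 1 at 12 °C was inside the cold range, and the other 3 lay above every cold library. The fold change was -0.86 ± 0.30 and did not pass edgeR's quasi-likelihood test (adjusted p = 0.235), but without replicate 1 at 12 °C it was -1.1 and passed (adjusted p = 0.041). In the authors' deposited table Cyp6a9 was lower in the cold at -0.94 ± 0.27 with an adjusted p of 0.0154. In G. lacustris Cyp6a9 stood at 14.2, 14.6, 15.8 and 18.2 CPM at 1.5 °C and at 11.9, 23.8, 26.9 and 31.5 CPM at 12 °C, so that replicate 1 at 12 °C lay below every cold library and the other 3 above every one. There the fold change was -0.59 ± 0.30 with TMM and 0.01 with the authors' size factors, with an adjusted p of 0.159 in edgeR with TMM, and -0.78 without that replicate (adjusted p = 0.0105).

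CYP2J2, which in mammals makes epoxides of arachidonic acid, was found in all 3 species. In G. lacustris it measured 73.7, 88.7, 113 and 81.5 CPM at 1.5 °C, against 56.1, 58.5, 75.1 and 32.2 CPM at 12 °C. Only replicate 3 at 12 °C reached into the cold range. The fold change of 0.69 ± 0.28 missed the threshold by edgeR (adjusted p = 0.0743), and passed with the authors' size factors (1.36, adjusted p = 0.00237) and without the low-count filter (0.89, adjusted p = 0.0311). It also passed without replicate 3 at 12 °C (adjusted p = 0.0449) and without replicate 1 or 2 at 1.5 °C (adjusted p = 0.0256 and 0.0479), over a range of 0.0256 to 0.249 for all libraries left out in turn. E. cyaneus had 5.81, 9.60, 9.47 and 7.41 CPM at 1.5 °C and 8.34, 7.82, 12.1 and 10.2 CPM at 12 °C, with 2 cold libraries below every warm one and a partial overlap otherwise. CYP2J2 of E. verrucosus averaged 1.96 CPM in the cold and 1.55 CPM in the warm libraries, each set by 1 library (5.28 and 4.19 CPM). Its fold change of 0.36 was -0.83 without replicate 2 at 1.5 °C and 1.62 without replicate 3 at 12 °C.

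CYP301A1 and CYP301B1 belong to a mitochondrial arthropod family, and in flies CYP301A1 acts in cuticle formation. CYP301A1 of G. lacustris stood at 58.0, 46.0, 29.8 and 41.5 CPM at 1.5 °C and 13.3, 41.4, 33.4 and 26.3 CPM at 12 °C. The ranges overlapped and the fold change was 0.61 ± 0.35 (edgeR, adjusted p = 0.195), or 1.23 with the authors' size factors (adjusted p = 0.0186). CYP301B1 stood at 5.23, 9.20, 13.1 and 9.45 CPM at 1.5 °C, against 1.98, 4.65, 6.56 and 4.96 CPM at 12 °C, also with some overlap. Its 1.02 ± 0.41 just missed the threshold in edgeR (adjusted p = 0.0731). It passed in DESeq2 (adjusted p = 0.0332), with a replicate block (adjusted p = 0.0298), without the low-count filter (adjusted p = 0.0486), without replicate 1 at 1.5 °C (adjusted p = 0.0262) and with the authors' size factors (1.63, adjusted p = 0.00907). It was 0.40 once the mean length of its 2 transcripts in each library was allowed for (adjusted p = 0.62). The authors' deposited table has 1.1 ± 0.36 for CYP301A1 (adjusted p = 0.00576) and 0.99 ± 0.53 for CYP301B1 (adjusted p = 0.0953). In E. cyaneus, CYP301A1 was at -0.09 ± 0.24 in the authors' deposited table and was not called.

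Other P450 names were known from vertebrates. CYP17A1, a steroid hydroxylase there, was listed for G. lacustris only. It stood at 1.24, 2.08, 1.05 and 1.17 CPM at 1.5 °C, against 25.4, 9.86, 13.5 and 9.25 CPM at 12 °C. Every cold library lay well below every warm one, and the fold change was -3.37 ± 0.44 by edgeR (adjusted p = 0.000329). CYP3A4, the main drug-oxidising P450 of the human liver, could not be tied to transcripts, and the authors' deposited table gives -3.40 ± 0.54 (adjusted p = 5.34e-09). CYP2R1, a vitamin D 25-hydroxylase in mammals, gave -0.61 ± 0.35 in G. lacustris with TMM and 0.04 with the authors' size factors, and 0.49 ± 0.56 in E. verrucosus, where replicate 4 at 1.5 °C was high and the value without it was -0.09. CYP2R1 passed in neither species.

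The P450 members that in flies make or break down ecdysteroids could be tested in part: CYP306A1 and Cyp18a1 in G. lacustris, those and CYP315A1 in E. cyaneus, and Cyp18a1 in E. verrucosus. None of these passed edgeR with TMM. In flies CYP306A1, CYP302A1 and CYP315A1 hydroxylate the moulting hormone precursor one after another, CYP307A1 acts earlier in the pathway, and Cyp18a1 inactivates the hormone. CYP306A1 of G. lacustris stood at 1.62, 1.31, 1.4 and 1.63 CPM at 1.5 °C, against 0.528, 0.776, 1.02 and 0.763 CPM at 12 °C. The groups did not overlap, the fold change was 0.93 ± 0.36 with TMM and missed the threshold by edgeR (adjusted p = 0.0604), and it passed with RLE factors (adjusted p = 0.0435) and with the authors' size factors (1.56, adjusted p = 0.00516). In E. cyaneus CYP306A1 was at 2.12 ± 0.58 CPM in the cold and 2.18 ± 0.65 CPM in the warm libraries, and CYP315A1 at 1.33 ± 0.29 and 1.64 ± 0.06 CPM. Cyp18a1 overlapped in E. verrucosus (2.27 ± 0.99 CPM in the cold, 2.49 ± 0.80 CPM in the warm) and in E. cyaneus (16.7 ± 1.99 and 16 ± 4.97 CPM). In G. lacustris Cyp18a1 stood at 25.4, 23.4, 10.2 and 14.8 CPM at 1.5 °C and 8.71, 12.6, 21.7 and 11.7 CPM at 12 °C, with an overlap and a fold change of 0.43 ± 0.37 that passed only with the authors' size factors (1.07, adjusted p = 0.0343). CYP307A1 was below the test's count limit, at 0.467 to 1.75 CPM in the cold and 0 to 0.791 CPM in the warm libraries of G. lacustris, and the authors' deposited table calls it higher in the cold at 2.13 ± 0.87 (adjusted p = 0.0266).

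Of the electron donors, CYB5R3 did not pass in either Baikal species. It measured 89.6 ± 6.51 CPM in the cold and 107 ± 12.6 CPM in the warm libraries of E. verrucosus (-0.26 ± 0.21), and 58.4 ± 3.80 and 66.4 ± 10.6 CPM in those of E. cyaneus (-0.19 ± 0.19). POR, the reductase that feeds electrons to the microsomal P450s, was listed in G. lacustris only and was not tied to transcripts. The authors' deposited table has POR higher in the cold at 1.1 ± 0.21 (adjusted p = 7.55e-07), beside a median of -0.41 over all its entries. Under the same size factors the median of all features in edgeR was 0.75. CYB5D1 and CYB5D2, proteins with a cytochrome b5 domain, were placed among the electron donors by symbol alone. Both were lower in the cold in G. lacustris. CYB5D1 stood at 0.190, 0.438, 0.233 and 0.467 CPM at 1.5 °C, against 4.36, 1.55, 1.47 and 2.19 CPM at 12 °C. CYB5D2 stood at 0.855, 0.110, 0.465 and 0.350 CPM at 1.5 °C, against 4.09, 2.99, 3.17 and 2.10 CPM at 12 °C. Neither showed any overlap, and edgeR gave -2.80 ± 0.53 and -2.73 ± 0.51 (adjusted p = 0.00147 each). Their cold values, at most 0.467 and 0.855 CPM, lay below the count limit, so both entered the test through their warm libraries. In E. verrucosus CYB5D2 stood at 37.1 ± 1.38 CPM in the cold and 29.1 ± 5.37 CPM in the warm libraries and did not pass (0.35 ± 0.21, edgeR adjusted p = 0.616).

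Among the other oxidases, MOXD1 and Moxd2 are copper monooxygenases related to dopamine beta-hydroxylase. MOXD1 of E. verrucosus stood at 27.4, 29.5, 32.3 and 24.2 CPM at 1.5 °C, against 15.9, 17.5, 19.7 and 16.2 CPM at 12 °C. All cold libraries lay above all warm ones, as for 9.2% of all features of this species, and the fold change was 0.71 ± 0.20. It did not pass edgeR (adjusted p = 0.141), passed DESeq2 (adjusted p = 0.00405) and was at 0.74 ± 0.27 in the authors' deposited table (adjusted p = 0.101). The authors' deposited table puts MOXD1 at 0.01 ± 0.30 in E. cyaneus and at -1.26 ± 0.58 in G. lacustris (adjusted p = 0.0494). Moxd2 of G. lacustris gave the lowest fold change of all tested members. It stood at 1.71, 2.30, 1.28 and 0.700 CPM at 1.5 °C, against 26.7, 21.3, 32.6 and 19.5 CPM at 12 °C, far apart, with -4.04 ± 0.39 by edgeR (adjusted p = 0.000173). Xanthine dehydrogenase, which makes uric acid from purines, averaged 2.43 TPM in E. verrucosus and could be tested only there, where it did not pass (0.33 ± 0.58, edgeR adjusted p = 0.921).

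Epoxide hydrolase EPHX1, which opens the reactive epoxides that P450s can form, was listed in E. verrucosus only. It stood at 41.7, 41.8, 33.3 and 34.3 CPM at 1.5 °C, against 54.8, 57.2, 55.1 and 54.6 CPM at 12 °C. All 4 cold libraries lay below the narrow warm range. The fold change was -0.55 ± 0.19 and did not pass edgeR (adjusted p = 0.278), while DESeq2 gave an adjusted p of 0.0446 and the authors' deposited table has -0.57 ± 0.17 with an adjusted p of 0.0220. Carboxylesterases, which split esters, were near the limit of detection: the 3 that could be measured averaged 0.532 to 0.789 TPM and none could be tested.

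**Figure D3:**
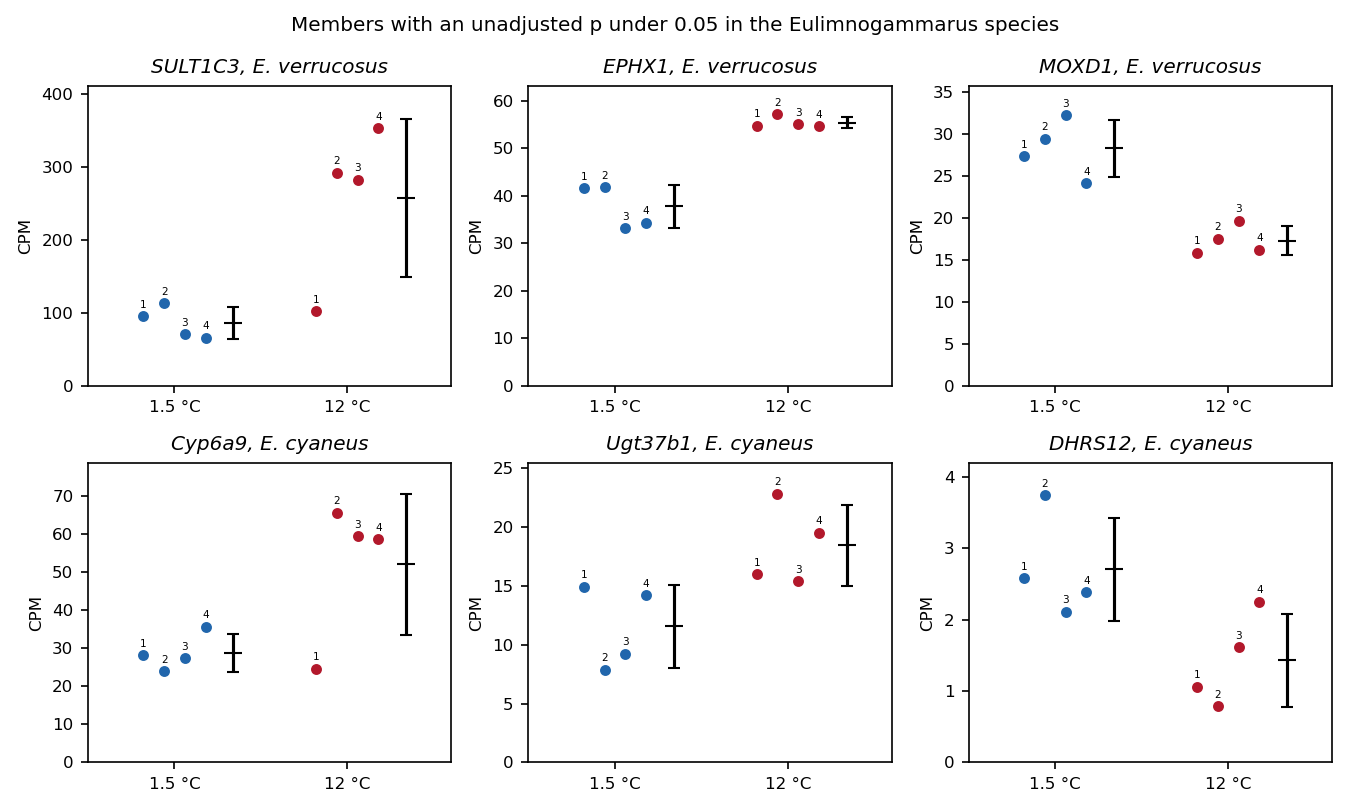
CPM in each library (points, numbered by replicate) with the mean ± SD (n = 4) of the 6 members with an unadjusted p under 0.05 in E. verrucosus (upper row) and E. cyaneus (lower row), 1.5 °C left of 12 °C. EPHX1, MOXD1 and Ugt37b1 show no overlap, and replicate 1 at 12 °C sits within the cold range for SULT1C3 and Cyp6a9.

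Carbonyl and retinol reductases of the short-chain dehydrogenase family, which reduce aldehydes, ketones and retinal, gave no call among 5 tested in E. verrucosus and 3 in E. cyaneus. Fold changes ran from -0.42 to 0.02 in E. verrucosus and from 0.12 to 0.89 in E. cyaneus. The 0.89 was DHRS12 of E. cyaneus, at 2.58, 3.74, 2.11 and 2.38 CPM at 1.5 °C and 1.06, 0.791, 1.61 and 2.25 CPM at 12 °C, where 1 warm library reached the cold range (edgeR, adjusted p = 0.319). In G. lacustris DHRS1 was lower in the cold. It stood at 4.94, 5.37, 2.79 and 3.27 CPM at 1.5 °C, against 59.6, 30.6, 43.1 and 21.4 CPM at 12 °C, with no overlap and -3.23 ± 0.38 by edgeR (adjusted p = 0.00028). DHRS11 and RDH12 of G. lacustris were at 0.06 ± 0.39 and 0.57 ± 0.54 and did not pass. Of those without transcripts, the authors' deposited table has DHRS12 of G. lacustris at 1.09 ± 0.22 (adjusted p = 3.02e-06). CBR1, a carbonyl reductase of prostaglandins and quinones, was too low for the test, with 0 CPM in all 4 cold libraries of G. lacustris and 0.0954 to 1.19 CPM in the warm ones, and the authors' deposited table calls it lower (adjusted p = 0.0311).

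Glutathione transferases, which couple glutathione to electrophiles, fell by edgeR in G. lacustris in 3 of 4 tested members, where 30.2% of all features and 48.5% of named ones were lower, and gave no call in the other species. The authors' deposited table calls 3 of the 8 listed there lower and 1 higher. MGST1 stood at 2.09, 2.19, 1.98 and 1.4 CPM at 1.5 °C, against 38.2, 17.8, 17.3 and 14.8 CPM at 12 °C, and GstT1, of the theta class, at 1.14, 1.31, 1.05 and 0.700 CPM at 1.5 °C, against 14.1, 5.87, 8.14 and 4.86 CPM at 12 °C. Neither overlapped, and edgeR gave -3.51 ± 0.39 (adjusted p = 0.000241) and -2.95 ± 0.44 (adjusted p = 0.000501). GstT3, a more abundant theta-class member, stood at 44.3, 46.3, 63.4 and 46.1 CPM at 1.5 °C, against 96.9, 90.7, 82.4 and 84.1 CPM at 12 °C. Its groups were apart but close, and the -0.82 ± 0.21 that passed edgeR (adjusted p = 0.00766) was no longer called with the authors' size factors (-0.17, adjusted p = 0.502), without the low-count filter (adjusted p = 0.0726), or without replicate 1, 2 or 4 at 1.5 °C (adjusted p = 0.0976, 0.0824 and 0.054). GSTD6 overlapped in all 3 species. In G. lacustris it was at 77.1 ± 29.2 CPM in the cold and 95.3 ± 18 CPM in the warm libraries, a fold change of -0.31 with TMM and 0.35 with the authors' size factors.

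All 5 tested glutathione transferases of E. verrucosus had negative fold changes, from -0.48 to -0.19, and none passed (edgeR, adjusted p from 0.631 to 0.972). MGST1 there was at 25, 38.2, 22.4 and 48.8 CPM at 1.5 °C and 54.8, 43.7, 41.0 and 47.8 CPM at 12 °C, and the highest cold library lay above 3 of the warm ones. GSTO1, of the omega class, overlapped as well, at 45.7 ± 17.9 CPM in the cold and 61.3 ± 6.41 CPM in the warm libraries. For the unmeasured members in G. lacustris, the authors' deposited table has GstD1 at 1.04 ± 0.28 (adjusted p = 0.000623), GSTM3 at 0.19 ± 0.25 and GSTO1 at -0.59 ± 0.21 (adjusted p = 0.00977).

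Sulfotransferase SULT1C3 gave the lowest fold change of the members tested with edgeR in E. verrucosus. It stood at 96.1, 113, 70.8 and 66.2 CPM at 1.5 °C, against 103, 292, 283 and 353 CPM at 12 °C. Warm replicates 2 to 4 lay far above the cold range, and warm replicate 1 lay inside it. The fold change of -1.57 ± 0.41 did not pass edgeR (adjusted p = 0.0971), passed DESeq2 (adjusted p = 0.00777) and, without that replicate, was -1.84 and passed edgeR (adjusted p = 0.0172). In the authors' deposited table SULT1C3 was lower in the cold both in E. verrucosus (-1.57 ± 0.36, adjusted p = 0.00101) and in E. cyaneus (-0.88 ± 0.26, adjusted p = 0.0195), where no transcript could be tied to it. In G. lacustris it stood at 292, 310, 225 and 217 CPM at 1.5 °C and 196, 358, 431 and 337 CPM at 12 °C, where replicate 1 at 12 °C was the lowest of all. That fold change was -0.34 ± 0.26 with TMM (edgeR, adjusted p = 0.345) and 0.28 with the authors' size factors, and neither passed. SULT1B1 of G. lacustris was at 10.8 ± 1.43 CPM in the cold and 13.8 ± 2.43 CPM in the warm libraries, -0.35 with TMM and 0.27 with the authors' size factors, and did not pass.

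Glucuronosyltransferases, which add a sugar acid in vertebrates and mostly glucose in insects, were not called by edgeR in any species. Ugt37b1 of E. cyaneus stood at 14.9, 7.89, 9.25 and 14.2 CPM at 1.5 °C, against 16, 22.9, 15.4 and 19.5 CPM at 12 °C. The groups were apart by a small margin, as for 10.2% of all features of that species, and the -0.67 ± 0.26 did not pass edgeR (adjusted p = 0.287). The authors' deposited table has Ugt37b1 at -0.86 ± 0.26 (adjusted p = 0.0195) in E. cyaneus. In E. verrucosus it was at 9.24 ± 2.19 CPM in the cold and 11.7 ± 2.57 CPM in the warm libraries. In G. lacustris it was under 1 CPM in every library and not tested, although the authors' deposited table has 2.46 ± 1.09 (adjusted p = 0.0420). UGT1A1, tied to no transcript in any species, was called in G. lacustris (0.96 ± 0.24, adjusted p = 0.000174) by the authors' deposited table, which has -0.48 ± 0.32 for E. verrucosus and -0.28 ± 0.17 for E. cyaneus without a call.

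Over all members with an adjusted p, the authors' deposited table calls 2 of 33 in E. verrucosus, both lower in the cold, where it calls 4.69% of all entries (2.7% higher, 1.99% lower). The authors' deposited table for E. cyaneus calls 3 of 25, all lower, beside 6.27% of all entries (2.24% higher, 4.03% lower). For G. lacustris the authors' deposited table calls 21 of 45, 10 higher and 11 lower, beside 58.9% of all entries (25.1% higher, 33.8% lower). Median fold changes of the members in the authors' deposited table were -0.08, -0.02 and 0.14, beside 0.06, 0.01 and -0.41 for all entries.

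The 7 members of G. lacustris with fold changes below -2 (Moxd2, MGST1, CYP17A1, DHRS1, GstT1, CYB5D1 and CYB5D2) were also summed per library. They were picked by this change, so the gap between cold and warm in their sum follows from the choice. Members lowest in the cold, such as CYB5D1 and CYB5D2, entered the test through their warm libraries. The summed level of the 7 was 12.2, 13.8, 8.84 and 8.05 CPM in the cold libraries, against 172, 90.0, 119 and 74.1 CPM in the warm ones. Among the warm libraries replicate 1 was the highest for 6 of the 7, and replicate 3 for Moxd2. All 7 kept their call and direction with each of the 8 libraries left out, with DESeq2 and with the authors' size factors. They stood among 7500 features, 27.8% of those tested, with fold changes below -2 that passed the test, so 29.2% of tested members is near that share. Together these features held 1.70, 2.16, 1.28 and 1.44% of the counts of the cold libraries and 16.6, 10.3, 12.9 and 8.73% of those of the warm ones, with the same order of warm libraries as the members' sum. Muscle markers were called lower in 3 of 4 tested names, beside 30.2% of all features and 48.5% of named ones. No marker of digestive gland, ovary, cuticle or nerve was called in G. lacustris, but few could be tested. These were 1 of 7 digestive gland names, 1 of 2 ovary, 2 of 7 cuticle and 1 of 3 nerve names. The part of these tissues in the result was not tested. No tested member of that species had a fold change between -2.73 and -0.82.

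**Figure D4:**
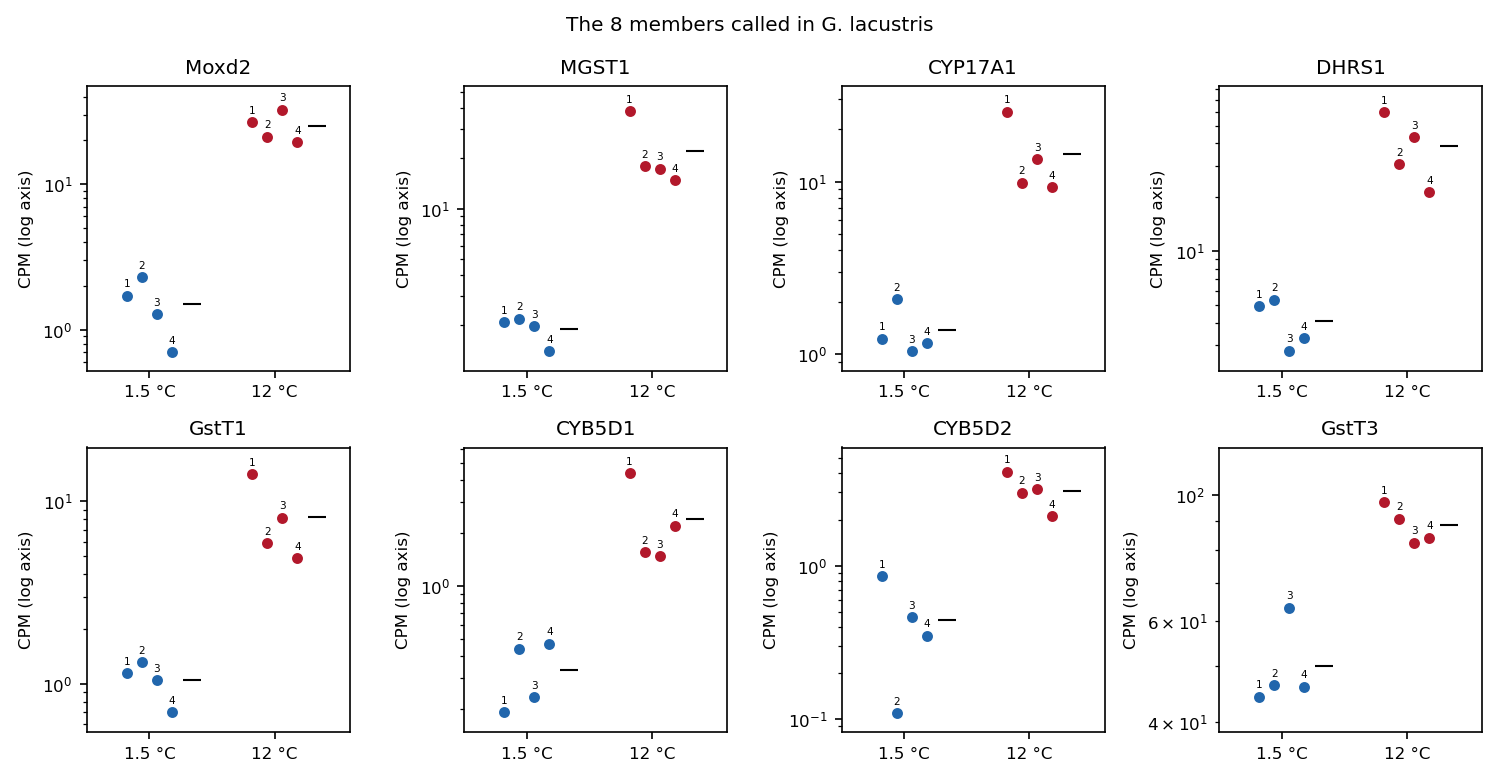
CPM on a log axis in each library (points, numbered by replicate; bar, mean of 4) of the 8 members called in G. lacustris, 1.5 °C left of 12 °C. No panel shows an overlap, and in 7 of 8 panels replicate 1 at 12 °C is the highest.

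**Figure D5:**
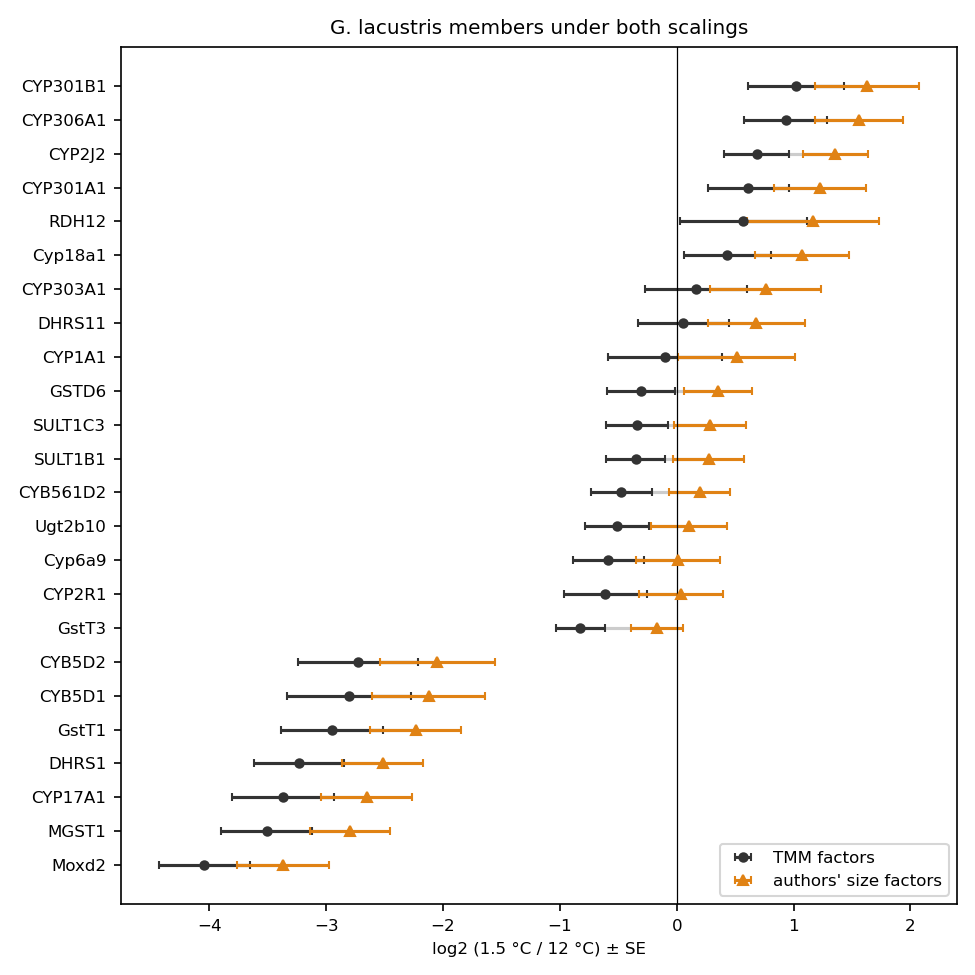
Log2 fold change ± SE of the 24 tested members of G. lacustris with TMM factors (circles) and with the authors' size factors (triangles). The triangles lie 0.64 to the right in the median; 8 members change sign, while the 7 lowest stay below -2 under both.

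The temperature effect was compared between species by shared name, with limma over all shared names that were tested in both species, on TMM-scaled values. A name shared by 2 assemblies is no proof that the transcripts come from the same gene. Levels could differ widely: CYB5D2 averaged 37.1 CPM in the cold and 29.1 CPM in the warm libraries of E. verrucosus, against 0.445 and 3.09 CPM in G. lacustris. None of 6 shared members differed between E. verrucosus and E. cyaneus, where 1.63% of shared names did. Between E. verrucosus and G. lacustris 3 of 10 differed, beside 40.6% of shared names. CYB5D2 had a fold change of 0.37 in E. verrucosus and -2.40 in G. lacustris (difference 2.77 ± 0.44, limma adjusted p = 0.000143), MGST1 of -0.54 and -3.29 (difference 2.75 ± 0.42, limma adjusted p = 0.000103), and GSTT1 of -0.33 and -2.64 (difference 2.32 ± 0.50, limma adjusted p = 0.00138). For SULT1C3 the difference of -1.17 ± 0.48 did not pass (limma, adjusted p = 0.0605), though it did without replicate 1 at 12 °C or 2 at 1.5 °C of E. verrucosus or replicate 3 at 12 °C of G. lacustris (adjusted p from 0.0029 over all libraries left out in turn, up to 0.13). Between E. cyaneus and G. lacustris 1 of 5 differed, beside 50.3% of shared names: CYP2J2 was at -0.26 in E. cyaneus and 0.73 in G. lacustris (difference -0.98 ± 0.36, limma adjusted p = 0.0282). That call was lost without replicate 1 at 1.5 °C or 3 at 12 °C of E. cyaneus and without replicate 3 at 1.5 °C or 4 at 12 °C of G. lacustris (limma adjusted p up to 0.0669). The scaling of G. lacustris enters each of these differences, and they were not run with the authors' size factors.

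Other genes of the pathway were read the same way. In E. verrucosus few could be tested: 2 efflux pumps, 1 regulator and 3 cofactor enzymes. In E. cyaneus only 4 efflux pumps could be tested, with no regulator or cofactor enzyme. No ecdysteroid enzyme of this list could be tested in either species. None of those tested passed edgeR's quasi-likelihood test, and none had an unadjusted p under 0.05. The authors' deposited table calls the efflux pump ABCC3 higher in the cold in E. verrucosus, at 3.07 ± 0.49 (adjusted p = 5.09e-08), and PGRMC2, a heme-binding partner of P450s, lower in E. cyaneus at -1.77 ± 0.54 (adjusted p = 0.0231). In G. lacustris 10 of 19 cofactor names were tested, 6 were lower in the cold, 1 was higher and 3 did not pass, beside 30.2% of all features lower and 9.9% higher (48.5% and 10.2% of named ones). The authors' deposited table calls 8 of the 19 lower and 7 higher. Lower were FECH, the last enzyme of heme synthesis (-3.72 ± 0.52), ME1 and PGD, sources of NADPH (-3.40 ± 0.43 and -2.93 ± 0.40), PAPSS2, which makes the sulfate donor (-3.28 ± 0.40), PGRMC2 (-3.28 ± 0.56) and UGP2, which makes UDP-glucose (-2.96 ± 0.45), each with an adjusted p under 0.05 in edgeR. Heme oxygenase HMOX1, which breaks heme down, was the higher one, at 50.1 ± 9.93 CPM in the cold and 30.8 ± 0.79 CPM in the warm libraries (0.70 ± 0.21, edgeR adjusted p = 0.0222). ALAS1, the first enzyme of heme synthesis, was at 143 ± 14.8 CPM in the cold and 159 ± 60.3 CPM in the warm libraries and did not pass (-0.15 with TMM, 0.55 with the authors' size factors). Also lower in G. lacustris were the efflux pump ABCB10 (-2.95 ± 0.40), the stress regulator NFE2L1 (-4.50 ± 0.71) and Phm (-2.72 ± 0.38). In the list Phm stood for the fly ecdysteroid P450, but the name can also denote a peptide-modifying copper enzyme. CYP306A1 was listed in G. lacustris under its own symbol, so Phm is not read here as an ecdysteroid enzyme. The 9 lower genes named here also had negative fold changes with the authors' size factors, from -3.82 to -2.05. Their mean levels ran from 0.304 CPM (FECH) to 2.93 CPM (PGD) in the cold libraries and from 4.16 CPM (ME1) to 22.5 CPM (PGD) in the warm. Those lowest in the cold passed the count filter through the warm libraries. Of all features, 27.8% passed with fold changes below -2. The remaining 2 efflux pumps tested there did not pass.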

How the data were processed

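Whole-body RNA of pooled animals was sequenced by the submitters. Per the series' design text, transcripts were assembled with Trinity, and redundant, faulty and non-animal ones were removed. The submitters' processing notes name Salmon 1.1.0 as well as DESeq2 1.26.0. The authors deposited estimated counts and TPM per transcript and library, per the file headers. Their deposited table for each species gives, per gene name, a mean normalised count (signal), the Wald score, p-value and adjusted p-value, and the log2 fold change and its error. How transcripts were given names is not stated in the sources used here.

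Names were tied to transcripts, or to summed sets of them, whose mean normalised count equalled the deposited one within a relative tolerance of 1e-11 (1e-12 for pairs of sets), after the authors' size factors had been solved from the tables. Decoy means shifted by 1e-05 gave 0 matches, and all tied names with a mean over 50 had the deposited log2 ratio within 0.1. Tied names numbered 3219 for G. lacustris, 2682 for E. verrucosus and 2676 for E. cyaneus. They held 4.6 to 10.0% of a library's counts.

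Estimated counts were summed per tied name, rounded and tested with edgeR 4.0.16 (R 4.3.3; TMM factors, filterByExpr at a per-library minimum of 10 counts and a total of 15, quasi-likelihood test, Benjamini-Hochberg adjustment over all features of the species, threshold 0.05), 1.5 °C against 12 °C, 4 libraries each. Species were compared with limma 3.58.1 (prior count 2). The edgeR procedure was tested on simulated data. Alternatives were DESeq2 1.42.0, RLE factors, no filter, single transcripts, a replicate block, each library left out and, added after seeing the data, the authors' size factors and length offsets. Same-numbered replicates did not deviate together (correlations from -0.213 to 0.114), so the numbers were not used to pair samples. Number of series columns not used: 0.

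Members, classes, marker lists and pathway lists were chosen with earlier results of these data known. Genes named with values were those called by edgeR or in the authors' deposited table, the 8 highest by TPM in each species and names found in more than 1 species. No sequence is shown, since neither sequences nor a reference were used here.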

Additional observations from a re-analysis of the deposited data

Results flagged for a closer look

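A single library stood far from the other 3 of its group in 5 of 106 groups of 4 libraries, by Dixon's criterion; chance alone marks about 1 in 20 groups. CYP2R1 of E. verrucosus was at 4.34 CPM in replicate 4 at 1.5 °C, the highest of its group. GSTD6 of E. cyaneus was at 1.2 CPM in replicate 1 at 1.5 °C, the lowest of its group, and Cyp6a9 of the same species was at 24.6 CPM in replicate 1 at 12 °C, also the lowest. In G. lacustris GstT3 was at 63.4 CPM in replicate 3 at 1.5 °C and MGST1 at 38.2 CPM in replicate 1 at 12 °C, each the highest of its group.

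The effect of temperature differed between species for 4 shared names, by limma with an adjusted p under 0.05. A shared name is no proof of the same gene. The differences in log2 fold change, E. verrucosus minus G. lacustris, were 2.77 for CYB5D2, 2.75 for MGST1 and 2.32 for GSTT1. For CYP2J2 the difference, E. cyaneus minus G. lacustris, was -0.98.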

How the results depend on the processing

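With a replicate block edgeR called 187 features in E. verrucosus and 49 in E. cyaneus, against 799 and 129 without it. DESeq2 called 1372 and 864. In G. lacustris there were 17783 calls without the low-count filter and 18012 with the authors' size factors, against 10844. Among members, DESeq2 called 3 in E. verrucosus, and the block gave 0, 0 and 9 calls in E. verrucosus, E. cyaneus and G. lacustris. Replicate numbers did not pair the samples: a library was closest to its own number in 1 case, replicate 4 of G. lacustris. The members' median fold change was -0.094 without the filter in E. verrucosus and 0.236 with the authors' size factors in G. lacustris. Leaving out each library gave 0 to 1 member calls in E. verrucosus (1 without replicate 1 at 12 °C), 0 to 1 in E. cyaneus (1 without replicate 1 at 12 °C) and 7 to 9 in G. lacustris, with medians of -0.280 to -0.091, -0.270 to 0.128 and -0.638 to -0.196. It gave 40 (without replicate 3 at 1.5 °C) to 199 (without replicate 1 at 12 °C) calls over all features in E. cyaneus, where 45 without replicate 3 and 50 without replicate 2 at 12 °C, and 58, 62 and 74 without replicates 4, 1 and 2 at 1.5 °C, were also over 1.5 times below 129. Species differences between E. cyaneus and G. lacustris numbered 0 to 1. Of single-member fold changes with a library left out, 7 newly passed and 3 no longer passed. Of those on the same side of the threshold, 9 moved by more than the standard error, and some that had not passed changed sign. The cause of these shifts was not tested. Depth limited the tests to 62 of 101 tied members.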
